A study of Mus musculus with 4 samples.

Results

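The enzymes that turn acetyl-CoA into squalene were followed in the livers of WT and *Usp21* KO mice. The genes are *Acat2*, *Hmgcs1*, *Mvk*, *Pmvk*, *Mvd*, *Idi1*, *Fdps*, *Fdft1* and *Ggps1*. They were chosen by gene symbol as enzymes of this route, and all 9 were found among the 35739 genes of the deposited liver RNA-seq table. Other steps of the route are not analysed here. The libraries came from 2 WT mice, numbered 2 and 3, and 2 mice with the *Usp21* KO, numbered 1 and 3, which were littermates aged 10 to 11 weeks on a normal diet. The KO is constitutive and lacks exons 3 and 4 of *Usp21*, a ubiquitin-specific protease, on a mixed B6 and 129/Sv background. The controls are labelled WT. The Cre line, the sex of the mice and the hour at which the livers were taken are not given in the sources used here. *Usp21* itself had 4.07 and 6.29 TPM in WT replicates 2 and 3, against 1.64 and 2.93 TPM in KO replicates 1 and 3 (log2 difference -0.92, adjusted p = 0.464 from limma), and since the exons outside the deletion can still give reads, this gene-level value is a weak check of the labels.

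Cholesterol and the non-sterol isoprenoids share the mevalonate pathway. Acetyl-CoA units are condensed to hydroxymethylglutaryl-CoA, which is reduced to mevalonate. Mevalonate is then phosphorylated and decarboxylated to isopentenyl diphosphate, and these units are joined to farnesyl diphosphate. Joining a pair of farnesyl diphosphates gives squalene, the first product committed to sterols, while geranylgeranyl diphosphate leaves the route for protein prenylation. In liver, most of these genes are targets of SREBP2, a transcription factor that is released from the endoplasmic reticulum when membrane sterol is low.

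On the log2 scale, 8 of the 9 genes had a lower mean in *Usp21* KO livers, as 33.3% of all tested genes did, and 1, *Ggps1*, a higher one. The lower means lay furthest from WT for *Mvd* and *Mvk*, followed by *Fdps* and *Fdft1*, the last of which was higher in KO in a second deposited table. For *Hmgcs1* and *Idi1*, the means of the genotypes were close. The values are TPM, an abundance relative to all transcripts of a library and corrected for transcript length. They were compared as log2(TPM + 1) with limma over the 9581 genes whose mean reached 1 TPM. None of the 9 genes passed the threshold of 0.05 after Benjamini-Hochberg adjustment in limma, compared with 0.0835% of all tested genes (0.0313% lower and 0.0522% higher). An unadjusted p under 0.05 from limma was found for 4 of the 9 (*Mvk*, *Fdft1*, *Mvd* and *Fdps*), each lower in KO, where 2.04% of all tested genes met the same rule in that direction and 8.45% in the other, where there was no member. In 4 of the 9 genes both KO libraries lay below both WT libraries, a pattern seen in 10.9% of all tested genes, and in *Ggps1* alone both KO values exceeded both WT values, as 34.4% of all tested genes did. The median log2 difference of the 9 genes, KO minus WT, was -0.55, while that of all tested genes was 0.15. With 2 libraries per genotype an exact permutation test of a single gene cannot give a p below 0.33, so none was run. These are bulk livers, in which fewer cells of a type and less RNA per cell cannot be told apart.

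**Figure D1:**
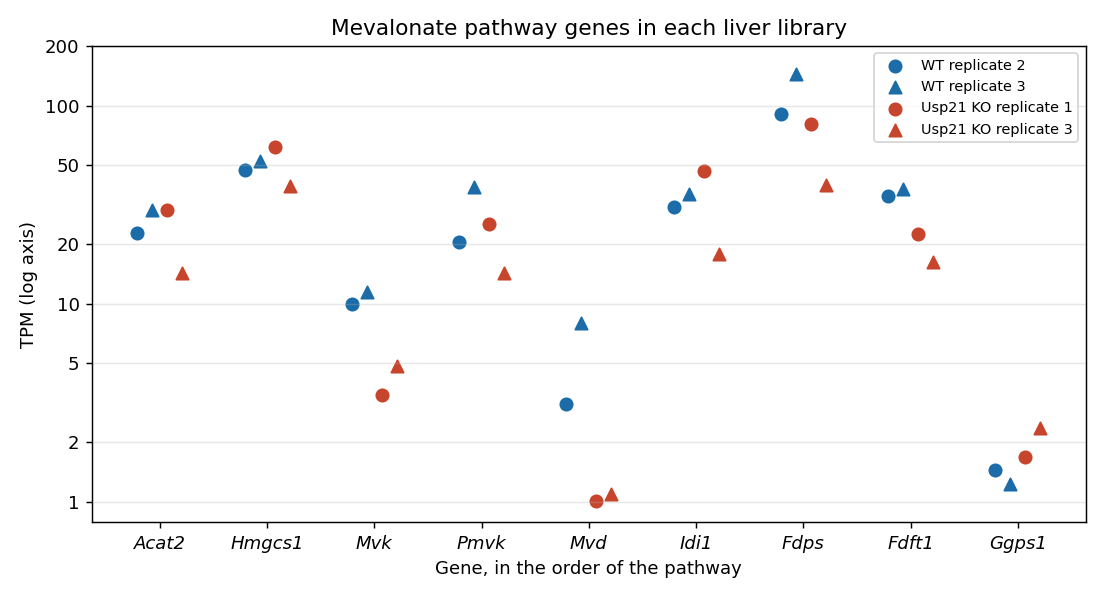
TPM on a log axis for each pathway gene, with 1 point per liver library (blue for WT, red for *Usp21* KO). For *Mvk*, *Mvd*, *Fdps* and *Fdft1* both red points lie below both blue points (for *Fdft1* not in the second deposited table), and for *Acat2*, *Hmgcs1*, *Pmvk* and *Idi1* the colours overlap.

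By mean level over the 4 libraries, *Fdps* was the most abundant at 88.6 TPM, followed by *Hmgcs1* (50.3 TPM), *Idi1* (32.9 TPM), *Fdft1* (28.0 TPM), *Pmvk* (24.8 TPM) and *Acat2* (24.2 TPM). *Mvk* (7.43 TPM), *Mvd* (3.29 TPM) and *Ggps1* (1.68 TPM) came last. The ranges over libraries of neighbours in this order overlapped, except those of *Acat2* and *Mvk*. Compared within each library, *Fdps* exceeded *Hmgcs1*, *Hmgcs1* exceeded *Idi1*, *Acat2* exceeded *Mvk*, and *Mvk* exceeded *Mvd* in all 4. The order of the other neighbours varied. The kinase *Mvk* ranged from 3.47 to 11.4 TPM and stayed under every library of *Acat2*. The 9 genes together summed to 262 and 359 TPM in the WT livers (replicate 2, then 3) and to 273 and 150.0 TPM in the KO livers (replicate 1, then 3). The sum of KO replicate 1 thus lay between those of the WT livers, and KO replicate 3 was the lowest of the 4.

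The route opens with the condensing enzymes. *Acat2* (ENSMUSG00000023832, chromosome 17, 12942890 to 12960747, reverse strand, GRCm38) encodes the cytosolic thiolase that joins acetyl-CoA into acetoacetyl-CoA. Its level was 22.8 TPM in WT replicate 2 and 29.6 TPM in WT replicate 3, against 29.8 TPM in KO replicate 1 and 14.3 TPM in KO replicate 3, and values are given in this order from here on. KO replicate 1 was level with WT replicate 3, and KO replicate 3 was below all others. The log2 difference was -0.31 (standard error 0.36, 95% interval -1.22 to 0.59, adjusted p = 0.752 from limma). *Acat3*, a neighbouring near-copy, holds 43.7% of the 31-base stretches of the *Acat2* transcripts on the same strand, so salmon could have divided reads between the pair differently, and the *Acat2* values are uncertain. *Acat3* had 143 and 79.1 TPM in the WT livers against 141 and 104 TPM in the KO livers. With both genes added together, a sum chosen after the values were seen, the log2 difference was 0.083 (95% interval -0.62 to 0.79), the opposite sign. On the other strand, 13.2% of the 31-base stretches of *Acat2* occur in *Tcp1*, and the strand setting is not given. *Tcp1* had 71.0 and 74.3 TPM in the WT livers against 69.0 and 80.0 TPM in the KO livers.

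*Hmgcs1* (ENSMUSG00000093930, chromosome 13, 119690379 to 119708260, forward strand) encodes the cytosolic synthase that makes hydroxymethylglutaryl-CoA. It had 47.3 and 52.5 TPM in the WT livers against 62 and 39.4 TPM in the KO livers, so that the KO livers lay on either side of the WT livers. Its means were 49.9 ± 3.67 and 50.7 ± 16.0 TPM (SD, n = 2 per genotype), so that the order of the TPM means was the reverse of that on the log2 scale. The log2 difference was -0.01 (95% interval -0.64 to 0.62, adjusted p = 0.988 from limma), an interval that reaches as far above 0 as below it. Its sign turned when KO replicate 3 was left out (0.31) or when WT replicate 3 was left out (0.06).

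The kinases *Mvk* and *Pmvk* and the decarboxylase *Mvd* carry mevalonate to isopentenyl diphosphate. *Mvk* (ENSMUSG00000041939, chromosome 5, 114444269 to 114460591, forward strand), mevalonate kinase, had 9.96 and 11.4 TPM in the WT livers against 3.47 and 4.86 TPM in the KO livers. Both KO livers were well under both WT livers, and the spread within each genotype was small (10.7 ± 1.05 and 4.16 ± 0.981 TPM, SD, n = 2). The log2 difference was -1.19 (standard error 0.24, 95% interval -1.80 to -0.58, adjusted p = 0.408, unadjusted p = 0.00337 from limma). *Mvk* had the lowest unadjusted p of the 9 genes. Over the fits that left out a library the difference stayed between -1.39 and -1.0, and with a pseudocount of 5 it was -0.78.

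*Pmvk* (ENSMUSG00000027952, chromosome 3, 89454541 to 89469013, forward strand), phosphomevalonate kinase, had 20.6 and 39.0 TPM in the WT livers against 25.3 and 14.2 TPM in the KO livers. The genotypes overlapped, with KO replicate 1 inside the range of the WT livers. KO differed from WT by -0.55 on the log2 scale (95% interval -1.53 to 0.43, adjusted p = 0.612 from limma). Leaving out WT replicate 3 gave -0.11 and leaving out KO replicate 3 gave -0.16, while leaving out KO replicate 1 gave -0.95 and WT replicate 2 gave -1.0.

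*Mvd* (ENSMUSG00000006517, chromosome 8, 122433601 to 122443422, reverse strand), the diphosphomevalonate decarboxylase, had 3.11 and 7.95 TPM in the WT livers against 1.01 and 1.09 TPM in the KO livers. The KO livers were close together, while the WT livers differed 2.56-fold from each other. The mean was 5.26-fold higher in WT than in KO by TPM, and the log2 difference was -1.56 (standard error 0.41, 95% interval -2.59 to -0.54, adjusted p = 0.464, unadjusted p = 0.0103 from limma). The value was -2.13 when WT replicate 2 was left out and -1.0 when WT replicate 3 was. At these low TPM values the size depends on the pseudocount, with -2.14 for a pseudocount of 0.1 and -0.76 for a pseudocount of 5. *Mvd* lies within *Gm20388*, a gene on the other strand that the TPM table does not list. *Mvk* and *Mvd* were the members at least 2-fold lower in KO on the log2(TPM + 1) scale, and 1.1% of all tested genes were at least 2-fold lower.

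*Idi1* (ENSMUSG00000058258, chromosome 13, 8885501 to 8892451, forward strand), the isomerase that makes dimethylallyl diphosphate, had 30.8 and 36.0 TPM in the WT livers against 46.9 and 17.9 TPM in the KO livers. The KO livers were the highest and the lowest of the 4, and differed 2.62-fold from each other, the widest gap within KO among the members. KO differed from WT by -0.19 on the log2 scale (95% interval -1.28 to 0.90, adjusted p = 0.883 from limma). Leaving out KO replicate 3 gave 0.48, and leaving out KO replicate 1 gave -0.86. Of its 31-base stretches, 18.8% occur in other annotated genes on the same strand, of which *Gm13502* was listed at 0 and *Gm35570* reached 2.77 TPM in KO replicate 1. The paralog *Idi2* was listed at 0 in every library.

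The prenyl-chain enzymes follow. *Fdps* (ENSMUSG00000059743, chromosome 3, 89093588 to 89101959, reverse strand), farnesyl diphosphate synthase, had 90.6 and 144 TPM in the WT livers against 80.6 and 39.6 TPM in the KO livers. KO replicate 1 was not far below WT replicate 2, and KO replicate 3 was far below both. The log2 difference was -1.0 (standard error 0.39, 95% interval -1.97 to -0.03, adjusted p = 0.472, unadjusted p = 0.0457 from limma), just short of 2-fold. Leaving out KO replicate 3 gave -0.50, and leaving out WT replicate 3 gave -0.67. Of the 31-base stretches of its transcripts, 27.9% occur in another annotated gene on the same strand, mainly *Gm43738*, which overlaps *Fdps* and is not listed in the TPM table. The pseudogene-like copies that are listed there (*Gm3571*, *Gm5873* and *Gm8163*) had at most 0.202 TPM.

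*Fdft1* (ENSMUSG00000021273, chromosome 14, 63145150 to 63179578, reverse strand), squalene synthase, had 35.1 and 38.0 TPM in the WT livers against 22.5 and 16.3 TPM in the KO livers. The genotypes were apart and each was narrow (36.6 ± 2.05 and 19.4 ± 4.37 TPM, SD, n = 2). KO differed from WT by -0.90 on the log2 scale (standard error 0.22, 95% interval -1.44 to -0.36, adjusted p = 0.458, unadjusted p = 0.00694 from limma), and it stayed between -1.12 and -0.68 with each library left out. In the second deposited table, of reads counted per gene on alignments (CPM), *Fdft1* was the 1 member above 0. It had 99.8 and 174 CPM in WT and 214 and 203 CPM in KO there. Both KO values lay above both WT values, with a log2 difference of 0.65 (adjusted p = 0.650 from limma) and so the opposite sign. In these libraries 1 read was 7.68 and 9.17 CPM in WT and 6.68 and 9.22 CPM in KO, so these values rest on few reads. *Fdft1* overlaps *Ctsb*, on the other strand, over 774 bases, and without a stated strand setting reads counted there cannot be told apart. *Ctsb*, a lysosomal protease, had 237 and 183 TPM in the WT livers against 170 and 181 TPM in the KO livers.

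*Ggps1* (ENSMUSG00000021302, chromosome 13, 14050659 to 14063488, reverse strand), geranylgeranyl diphosphate synthase, stands on the branch that does not lead to squalene. It had 1.45 and 1.23 TPM in the WT livers against 1.69 and 2.35 TPM in the KO livers, the 1 member with both KO livers above both WT livers. KO differed from WT by 0.36 on the log2 scale (95% interval -0.31 to 1.03, adjusted p = 0.626 from limma), and it ranged from 0.20 to 0.52 with each library left out. At this low level it also depended on the pseudocount, with 0.55 for a pseudocount of 0.1 and 0.15 for a pseudocount of 5. *Arid4b*, which overlaps *Ggps1* by 257 bases on the other strand, had 0.712 and 1.76 TPM in the WT livers against 5.92 and 2.52 TPM in the KO livers.

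**Figure D2:**
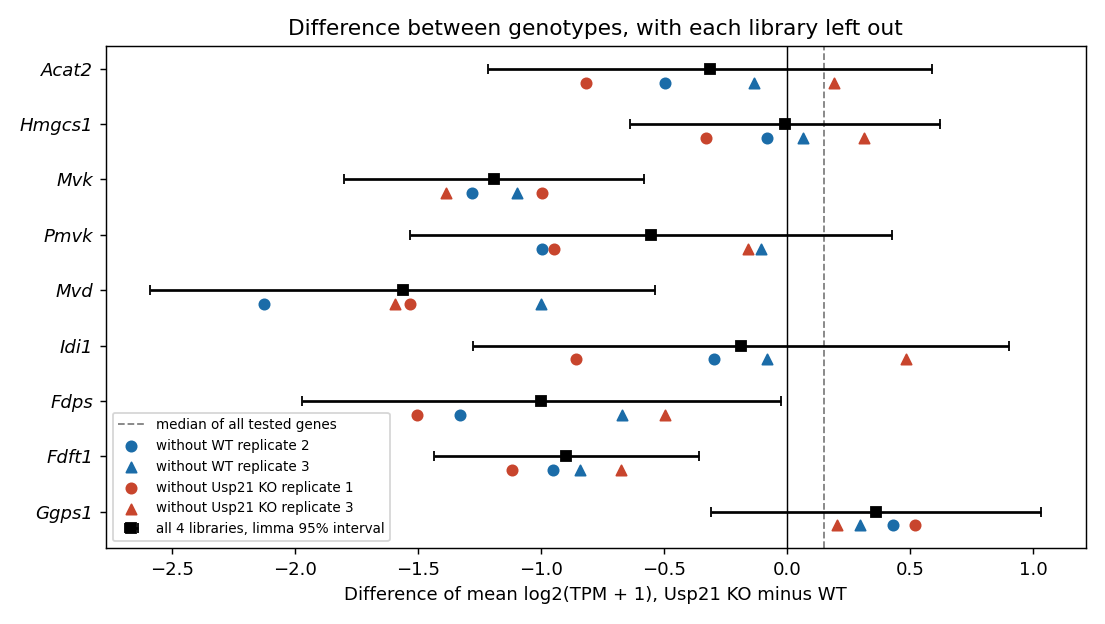
Difference of the mean log2(TPM + 1), *Usp21* KO minus WT, for each pathway gene (black squares, with limma's 95% interval) and with each library left out (coloured points). With each library left out, the values of *Mvk*, *Pmvk*, *Mvd*, *Fdps* and *Fdft1* stay below 0, and *Ggps1* stays above 0. Those of *Acat2*, *Hmgcs1* and *Idi1* cross 0 without KO replicate 3, and that of *Hmgcs1* also without WT replicate 3. The dashed line is the median of all tested genes, at 0.15.

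The livers of 1 genotype differed from each other as well. In 5 of the 9 genes the wider gap between replicates of a genotype exceeded the difference between the genotypes on the log2(TPM + 1) scale. *Fdps* met this rule narrowly, with a gap of 1.007 within KO and a difference of -0.9998 between the genotypes. How many of all tested genes meet the rule was not counted. KO replicate 1 was at least 1.5 times KO replicate 3 for *Acat2*, *Hmgcs1*, *Pmvk*, *Idi1* and *Fdps*, which is 5 of 9 genes compared with 20.9% of all tested genes. *Mvk* and *Ggps1* ran the other way, with KO replicate 3 at 1.40 and 1.39 times KO replicate 1. KO replicate 3 was the lowest of the 4 libraries for 6 of 9 genes, compared with 22.9% of all tested genes, and WT replicate 3 the highest for 5 of 9, compared with 15.2%. Without KO replicate 3 the median log2 difference of the 9 genes was -0.16, when that of all tested genes was 0.22, and without WT replicate 3 it was -0.13, when that of all tested genes was 0.15. Leaving out either KO replicate 1 or WT replicate 2 gave -0.95. The size of the median thus depended on the library left out, and it lay below that of all tested genes in each case.

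Set against *Hmgcs1* in the same library, which removes any factor common to a library, several enzymes lay apart between the genotypes. This denominator was chosen after its values were seen, and the ratios are a description with no test. The *Fdft1* to *Hmgcs1* ratio of TPM was 0.743 and 0.725 in WT and 0.362 and 0.414 in KO, so that both livers of a genotype were close and the genotypes were far apart. The *Mvk* ratio was 0.211 and 0.218 in WT and 0.0559 and 0.123 in KO. The *Fdps* ratio was 1.92 and 2.74 in WT and 1.30 and 1.01 in KO. All of these ratios were lower in both KO livers. The *Mvd* ratio was 0.0658 and 0.152 in WT and 0.0163 and 0.0278 in KO. *Acat2* was barely apart, with 0.483 and 0.565 in WT and 0.481 and 0.364 in KO, and *Idi1* and *Ggps1* overlapped. In all, 6 of the 8 ratios were lower in both KO livers than in both WT livers, compared with 6.88% of the 9580 other tested genes set against *Hmgcs1* in the same way. Of the 6, *Acat2* and *Pmvk* overlapped on the TPM scale and were apart only against this denominator.

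**Figure D3:**
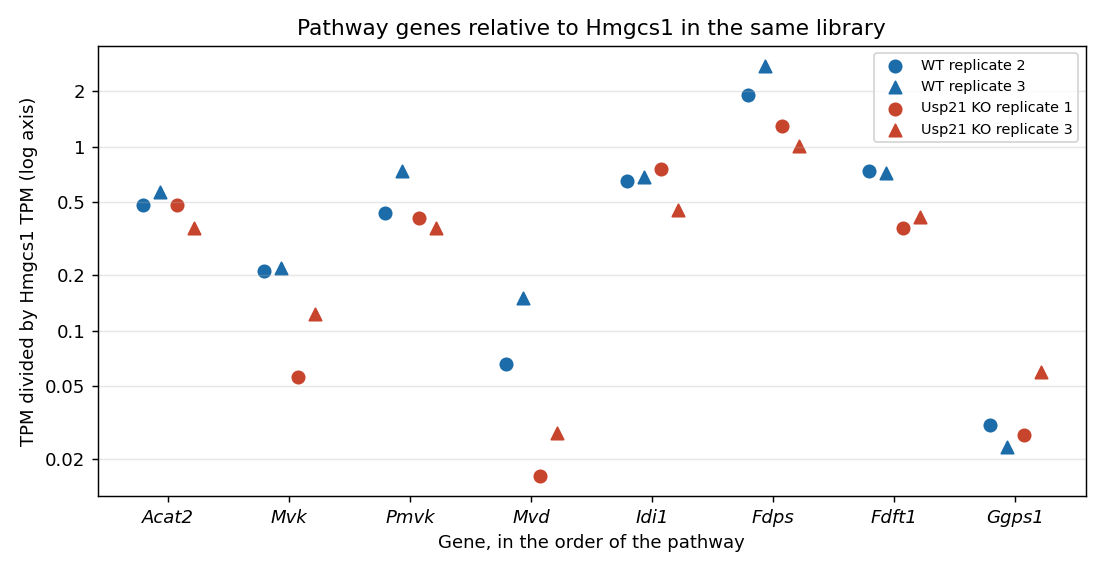
TPM of each pathway gene divided by that of *Hmgcs1* in the same library, on a log axis, with 1 point per library (blue for WT, red for *Usp21* KO). The *Fdft1* ratio is 0.743 and 0.725 in WT and 0.362 and 0.414 in KO, and the *Idi1* and *Ggps1* ratios overlap.

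As a share of the summed TPM of the 9 genes, *Hmgcs1* made up 18.1% and 14.6% in WT and 22.7% and 26.2% in KO. *Fdps* made up 34.6% and 40.0% in WT and 29.5% and 26.4% in KO. The largest share was thus that of *Fdps* in every library, with *Hmgcs1* closest to it in KO replicate 3. *Mvk* held 3.81% and 3.19% in WT and 1.27% and 3.24% in KO, so that on this scale KO replicate 3 lay between the WT livers. These shares depend on each other, since they add to a fixed total.

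Among the members' profiles over the 4 libraries, centred on each gene's mean of log2(TPM + 1), *Acat2* and *Idi1* were the closest pair, with a root mean square difference of 0.14. The pair farthest apart was *Mvd* and *Ggps1*, at 1.06. Of the 4019 other genes whose mean reached 10 TPM, the 10 closest to the mean profile of the members were *Gpt*, *Mthfs*, *Lect2*, *Selenbp1*, *Cldn2*, *Aldh1l1*, *Mat1a*, *Dhcr7*, *Sdhaf4* and *Gnmt*, at differences from 0.06 to 0.11. *Dhcr7*, which encodes the last reductase of cholesterol synthesis, was the sterol enzyme among them, with 15.5 and 24.3 TPM in the WT livers against 14.1 and 9.26 TPM in the KO livers. The members themselves lay between 0.18 (*Fdft1*) and 0.59 (*Ggps1*) from their own mean profile. Closeness over 4 libraries is a description of these livers.

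Promoter sequences from RefSeq (GRCm38.p6), from 250 bases before to 50 bases after each annotated start, matched 7 of the 9 genes by symbol, and *Fdps* and *Fdft1* are named only. They were searched on both strands because SREBP2 acts through sterol regulatory elements with NF-Y, which binds CCAAT. The sequences below are the sterol element of *Hmgcs1* and 1 CCAAT match each in the genes with the flattest (*Hmgcs1*, *Idi1*) and the widest (*Mvd*, *Mvk*) differences and in *Ggps1*, written along the strand of the match with the motif in capitals.
Hmgcs1, TCACNCCAC at chr13:119690214-119690222 on the strand of the gene: gtcaccgtcTCACCCCACttcccaggt
Hmgcs1, CCAAT at chr13:119690306-119690310 on the opposite strand: cgctttcagCCAATgagaggcgg
Idi1, CCAAT at chr13:8885592-8885596 on the opposite strand: ggtcgccagCCAATggcaccttg
Mvd, CCAAT at chr8:122443445-122443449 on the strand of the gene: gccagcgggCCAATcatatggca
Mvk, CCAAT at chr5:114444255-114444259 on the opposite strand: ttcctgaggCCAATcagagagct
Ggps1, CCAAT at chr13:14063539-14063543 on the strand of the gene: tcttctaggCCAATcggtaaact

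The sterol element TCACNCCAC was found in the window of *Hmgcs1* alone, 137 bases before the start, and in 1.24% of the 32851 promoter windows of all genes and 1.5% of the 7462 tested genes with a window. Its shorter core CACNCCAC, which lies within it, also matched the window of *Acat2* in 2 places, and 6.24% of all windows and 7.57% of tested genes. CCAAT was present in 6 of the 7 genes (not in *Acat2*), at 17 positions in all, and in 37.4% of all windows and 43.3% of tested genes. *Mvk* had 5 of these matches, *Hmgcs1* 4, *Ggps1* 3, *Mvd* and *Idi1* 2 each and *Pmvk* 1. The GC box GGGCGG was present in 5 of the 7 genes, and in 35.7% of all windows but 69.1% of tested genes, a share close to that of the members. The E-box CACGTG was present in none of the 7 genes, in 7.15% of all windows and in 12.2% of tested genes. *Ggps1*, the member higher in KO, held CCAAT matches as *Mvk* and *Mvd* did. A match is a description of the letters in these windows.

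**Figure D4:**
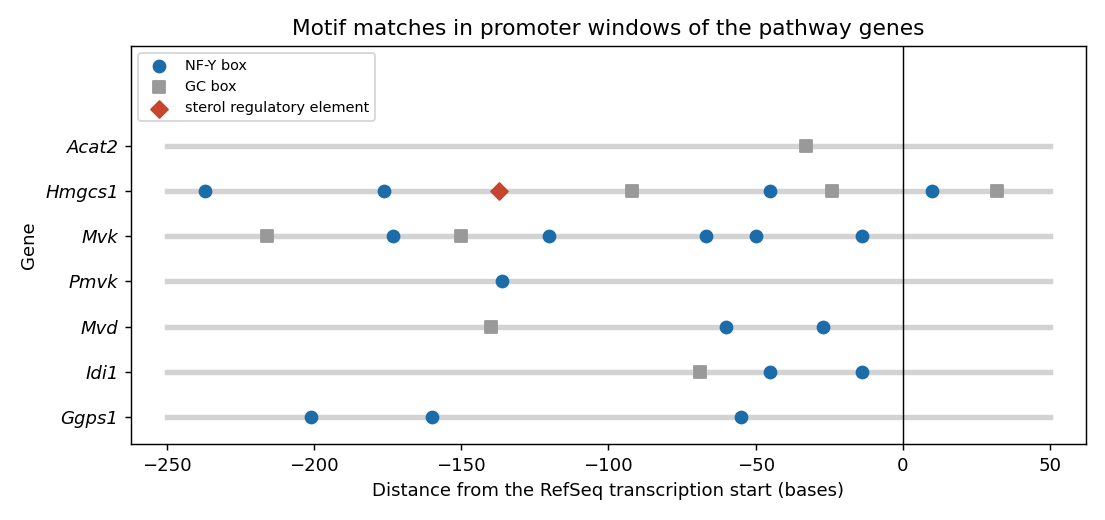
Positions of motif matches in the promoter windows of 7 pathway genes, in bases from the RefSeq transcription start (vertical line). Matches to CCAAT (NF-Y box) occur in every gene shown except *Acat2*. The single match to TCACNCCAC, drawn as the sterol regulatory element, lies 137 bases before the start of *Hmgcs1*.

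The enzymes that take squalene on to cholesterol were compared as the nearest part of the route. Of the 12 tested, 10 had a lower mean in KO, 4 had both KO livers below both WT livers, and limma gave 3 an unadjusted p under 0.05, each lower. Of all tested genes, 33.3%, 10.9% and 2.04% met these rules in the same direction. The median log2 difference of the 12 was -0.36, and none had an adjusted p under 0.05. *Msmo1*, a sterol oxidase, had 76.0 and 122 TPM in the WT livers against 47.1 and 22.5 TPM in the KO livers (log2 difference -1.53, adjusted p = 0.464 from limma), and the cyclase *Lss* had 6.32 and 11.1 TPM in the WT livers against 3.44 and 3.37 TPM in the KO livers (log2 difference -1.09). *Sqle*, the epoxidase that acts on squalene itself, had 4.39 and 7.02 TPM in the WT livers against 4.84 and 1.30 TPM in the KO livers, with overlapping groups. As in the mevalonate genes, single steps stood apart while others, such as *Ebp* at 254 and 239 TPM in the WT livers against 251 and 237 TPM in the KO livers, were level. KO replicate 3 was the lowest library for 11 of the 12, compared with 22.9% of all tested genes.

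On the supply side, 3 of 5 tested genes had a lower mean in KO, compared with 33.3% of all tested genes. None of the 5 had an unadjusted p under 0.05 in limma or an adjusted one. *Slc25a1*, the carrier that exports mitochondrial citrate, had 163 and 167 TPM in the WT livers against 135 and 120 TPM in the KO livers. *Acss2*, which makes cytosolic acetyl-CoA from acetate, had 33.2 and 40.3 TPM in the WT livers against 40.8 and 19.6 TPM in the KO livers, the same ordering of the KO livers as *Acat2* and *Idi1*.

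Of the genes that use farnesyl or geranylgeranyl diphosphate for other ends, 17 of 20 were tested. Of these, 11 had a higher mean in KO, as did 6394 of all 9581 tested genes. The median log2 difference of the 17 was 0.19, close to that of all tested genes. *Rabggtb*, the beta subunit of the enzyme that prenylates Rab proteins, had 21.1 and 18.2 TPM in the WT livers against 40.5 and 32.2 TPM in the KO livers (log2 difference 0.85, adjusted p = 0.458, unadjusted p = 0.00684 from limma). *Fnta*, the subunit shared by farnesyltransferase and geranylgeranyl transferase, had 14.1 and 12.5 TPM in the WT livers against 19.5 and 22.0 TPM in the KO livers. *Cox10*, which adds a farnesyl group to heme, had 5.49 and 3.85 TPM in WT and 2.41 TPM in both KO livers. These are the 3 genes of the list with an unadjusted p under 0.05 in limma, and none of the list had an adjusted p under 0.05. Of all tested genes, 8.45% were higher and 2.04% lower with an unadjusted p under 0.05 in limma.

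Among the genes that control SREBP, 1 of 11 had an unadjusted p under 0.05 in limma. It was lower in KO, where 2.04% of all tested genes met this rule in the same direction. *Srebf1*, which encodes SREBP1, had 58.1 and 64.3 TPM in the WT livers against 27.3 and 20.7 TPM in the KO livers (log2 difference -1.32, adjusted p = 0.242 from limma). *Srebf2*, which encodes SREBP2, had 8.23 and 9.07 TPM in the WT livers against 7.31 and 6.69 TPM in the KO livers (-0.27, 95% interval -0.79 to 0.25). *Insig1*, a sterol-sensing retention protein and itself an SREBP target, had 67.1 and 134 TPM in the WT livers against 67.7 and 51.2 TPM in the KO livers, so that WT replicate 3 stood above the others. *Insig2* had 112 and 50.2 TPM in the WT livers against 109 and 151 TPM in the KO livers.

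**Figure D5:**
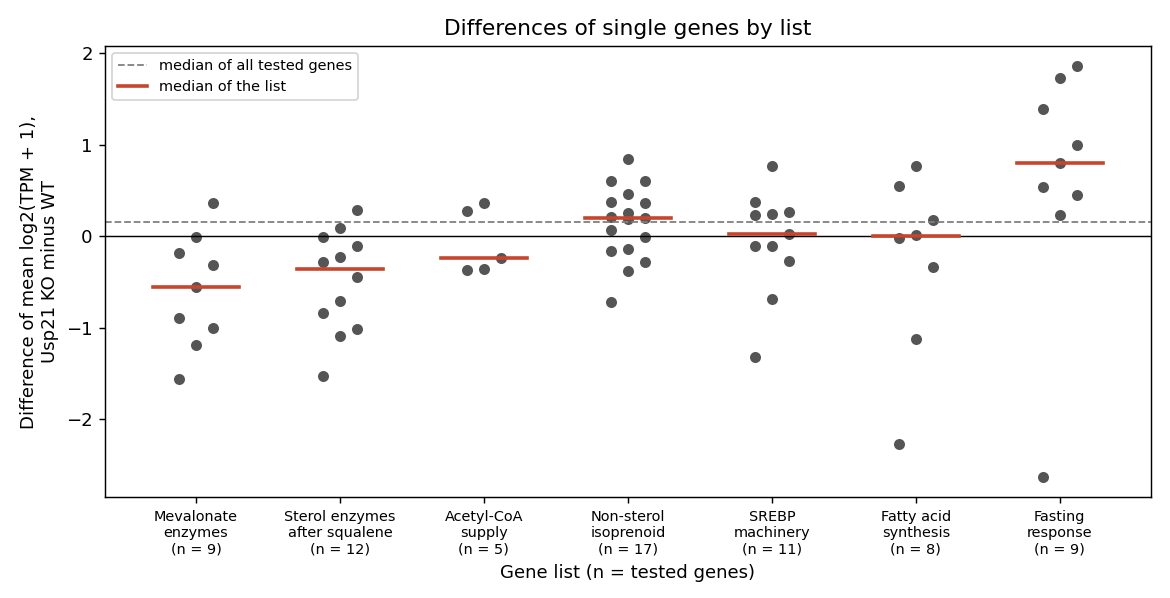
Difference of the mean log2(TPM + 1), *Usp21* KO minus WT, for the tested genes of each list (grey points) with the list's median (red line) and the median of all tested genes (dashed line, 0.15). The mevalonate genes have a median of -0.55 and the sterol enzymes after squalene -0.36, while the non-sterol isoprenoid genes lie near the dashed line.

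Other measures moved with these results, and their part in them was not tested. WT replicate 3 held the highest value of 5 of the 9 members. It was also the highest library for 5 of 8 tested genes of fatty acid synthesis, compared with 15.2% of all tested genes. Within WT, *Thrsp* had 75 and 611 TPM and *Fasn* 35.2 and 155 TPM, and in KO they had 51.9 and 36.7 TPM and 47.8 and 23.4 TPM. Of 9 tested genes of the fasting response, 8 had a higher mean in KO, as did 6394 of all 9581 tested genes. The list summed to 1460 and 1055 TPM in the WT livers against 1267 and 1765 TPM in the KO livers. Like the other lists, it was chosen with earlier results of these data known. The study had picked *Ppargc1a* and *Lpin1* of that list on these libraries. *G6pc*, which releases glucose, had 22.4 and 31.6 TPM in the WT livers against 56.4 and 173 TPM in the KO livers. The clock genes in phase with *Arntl* summed to 7.54 and 12.2 TPM in the WT livers against 33.7 and 34.4 TPM in the KO livers. Of these, 4 of 4 tested genes had a higher mean in KO, again beside 6394 of all 9581 tested genes. The clock genes of opposite phase summed to 143 and 109 TPM in the WT livers against 59.0 and 61.5 TPM in the KO livers. Of these, 6 of 7 tested genes were lower, compared with 33.3% of all tested genes. *Dbp*, among the latter, was the gene of these lists with an adjusted p under 0.05 (0.0193 from limma).

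The libraries carried the defining transcripts of liver. *Alb* ranged from 27475 to 43181 TPM, and the 7 hepatocyte markers summed to 57741 to 73937 TPM in WT and 50470 to 60007 TPM in KO. The 6 Kupffer cell markers summed to 88.5 to 100.03 TPM in WT and to 51.6 and 135 TPM in KO replicates 1 and 3. The 5 stellate cell markers summed to 44.6 to 52.9 TPM in WT and 62.2 to 82.9 TPM in KO, without overlap. *Dcn* gave most of each sum. Of the 4 tested, 2 were higher in both KO livers, as 34.4% of all tested genes were. The 4 cholangiocyte markers summed to 1.39 to 3.19 TPM in WT and 3.82 to 4.56 TPM in KO, without overlap. Among these, *Sox9* alone reached a mean of 1 TPM, and its genotypes overlapped (0.641 and 1.88 TPM in WT against 2.41 and 1.83 TPM in KO). The 5 sinusoidal endothelial markers summed to 31.6 to 40.7 TPM in WT and 33.6 to 49.6 TPM in KO, the 4 lymphocyte markers to 2.16 to 2.67 TPM and 1.70 to 2.41 TPM, and the 3 red blood cell markers to 564 to 598 TPM and 437 to 577 TPM. *Krt7* and *Ms4a1* were at 0 in KO replicate 3. The part of cell makeup in the members' values was not tested.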

How the data were processed

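Liver RNA-seq was made on an Illumina MiSeq from 1 library per mouse. The authors deposited TPM per gene from salmon against a transcriptome named mm10, and a table of TMM-normalized CPM from reads counted with HTSeq, a signal whose columns sum to different totals. Tool versions, annotation release and strand setting are not given in the sources used here. The log2 copies of both tables were not read, and 0 per-sample columns were left unused. Depth is lost in TPM. The CPM values were whole multiples of 1 read (100% within 0.02 reads), which gave 148164 and 110427 reads in WT and 145306 and 102898 in KO. Listed at 0 in that table are 428 of 686 genes that reached 100 TPM in each library, and 8 of the 9 members, so TPM were tested.

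Genes whose mean reached 1 TPM were tested on log2(TPM + 1) with limma 3.58.1 (trended eBayes, prior degrees of freedom 3.62), two-sided, with Benjamini-Hochberg adjustment. The mice were grouped by genotype alone, and p-values measure the spread between these libraries. The scripts were tested on simulated data. Alternatives were other pseudocounts, filters and scalings, no moderation, the CPM table, edgeR 4.0.16 and DESeq2 1.42.0 on the recovered reads, and each library left out. The genes named are the 9 members, those of lists by function and cell type, the 10 non-members closest to the members' mean profile, *Usp21*, and genes that overlap members or share transcript sequence with them, named after their values were seen. Members and lists were chosen with earlier results of these data known. Positions and transcripts were taken from GENCODE M21 (GRCm38).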

Additional observations from a re-analysis of the deposited data

How the results depend on the processing

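None of the 9 members had an adjusted p under 0.05 under any alternative, and the lowest was 0.366. The number of all tested genes with an adjusted p under 0.05 was 8 on the TPM values. It was 4 without the filter, 0 without moderation, 1 on the TMM-normalized CPM, 1 in DESeq2 and 12 in edgeR on the recovered reads, and 0 with any library left out. Beside these counts of 0 from limma, 806 genes had an unadjusted p under 0.05 without moderation, and 542 to 1188 with a library left out. Leaving out a library leaves fewer samples, and the cause of the other changes was not tested. The number of members whose KO values both lay below both WT values was 4, and 4 to 8 with each library left out, with 8 without KO replicate 1, compared with 19.4% to 27.8% of all tested genes under the same settings (27.8% without KO replicate 1). A single library then stands for a genotype and is assumed to vary like the others. The median log2 difference of the members (-0.55) ranged from -0.95 to -0.13 with each library left out. Signs turned for *Fdft1* on the CPM table (0.65, and 0.62 in edgeR and 0.59 in DESeq2), for *Hmgcs1* without WT replicate 3 (0.06), for *Acat2* (0.19), *Hmgcs1* (0.31) and *Idi1* (0.48) without KO replicate 3, and for *Acat2* summed with *Acat3* (0.083), an alternative added after seeing the data. With each library left out, *Acat2* ranged from -0.82 to 0.19, *Hmgcs1* from -0.33 to 0.31 and *Idi1* from -0.86 to 0.48. *Mvk*, *Pmvk*, *Mvd*, *Fdps* and *Ggps1* kept their sign under all alternatives in which they could be fitted. The other members could not be fitted on the CPM table, and *Mvd* and *Ggps1* not with a mean of at least 5 TPM. Upper quartile scaling moved the median of all tested genes from 0.15 to 0.04. The depth behind the TPM values is unknown. No paired analysis was run, because the labels give no litter or pairing, and a shared replicate number is not stated to mark a pair.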
